A study of Mus musculus with 32 samples.

Results

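Troponin is the calcium switch of the muscle thin filament. Troponin C (TnC) binds calcium, troponin I (TnI) holds the filament off in the resting state, and troponin T (TnT) ties the complex to tropomyosin. Fast fibers use the products of *Tnni2*, *Tnnt3* and *Tnnc2*, slow fibers those of *Tnni1*, *Tnnt1* and *Tnnc1*, and the heart shares *Tnnc1* with slow muscle and has its own TnT gene, *Tnnt2*. *Tnni1* and *Tnnt2* are also known to be expressed in muscle fibers around birth, before the adult isoforms take over, and the tibialis anterior (TA) of the adult mouse is made almost entirely of fast fibers. The 7 genes described here are these slow, fast and cardiac troponin genes, chosen by name from the 54838 genes of the table and found under 1 Ensembl identifier each. The remaining troponin gene of the mouse, *Tnni3*, which encodes cardiac TnI, is given for comparison.

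The data are RNA sequencing counts from skeletal muscle, TA by the methods of the study, of wild-type (WT) and *Mtm1* knockout (KO) mice at postnatal day 1 (P1), P14, P21 and P35, with 4 libraries in each of the 8 groups and 32 in all. The KO mice are a model of X-linked myotubular myopathy, a congenital muscle disease, and carry a targeted deletion of exon 4 of the X-linked phosphatase gene *Mtm1* in all their cells. Every group was on the C57BL6/J background and none was treated, and the WT mice were littermates that carry no deletion. By the description of the study, KO mice first show signs near P21 and have hindlimb paralysis and wasting at P35, so that age compares healthy muscle with muscle at the endpoint of the disease. The labels number the replicates without saying how the animals relate to one another, and the tests below measure the spread between these libraries.

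Libraries held between 49321035 and 85631408 counts. Levels are given as CPM, the usual measure of a count relative to the size of its library, on 1 common scaling of the 32 libraries. *Mtm1* itself stood at 18.9 to 24.9 CPM in WT libraries from P14 on, at 5.26 to 6.02 CPM in WT libraries at P1 and at 2.32 to 4.51 CPM in every KO library, so all 32 libraries had the level of their label. All 8 skeletal muscle markers were detected in every group, among them *Acta1*, *Ckm* and *Ttn*. The share of counts from mitochondrially encoded genes was 15.6% in WT and 10.4% in KO muscle at P35, and the 7 troponin genes together took 1.16 to 2.71% of all counts, as group means. WT P21 replicate 4 stood apart from the other WT P21 libraries in the slow troponin genes, and the calls that it decides are given with and without it.

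The TnI and TnT genes lie in pairs in the genome, on the GRCm38 build of the mouse. *Tnni1* (ENSMUSG00000026418, chr1:135779434-135810989) precedes *Tnnt2* (ENSMUSG00000026414, chr1:135836354-135852260) by 25364 bp with *Lad1* between them. *Tnni2* (ENSMUSG00000031097, chr7:142441808-142444410) precedes *Tnnt3* (ENSMUSG00000061723, chr7:142498836-142516009) by 54425 bp with *Lsp1* between them. *Tnnt1* (ENSMUSG00000064179, chr7:4504570-4516382) lies 1922 bp from *Tnni3* with no gene between. The TnC genes stand alone, *Tnnc1* (ENSMUSG00000091898) at chr14:31208312-31211729 and *Tnnc2* (ENSMUSG00000017300) at chr2:164777161-164779967. *Tnni1*, *Tnni2*, *Tnnt2*, *Tnnt3* and *Tnnc1* lie on the plus strand and *Tnnt1* and *Tnnc2* on the minus strand.

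The sequence before the start site is shown for the 4 genes that were called higher in KO muscle at P35, so that it can be set beside their levels. RefSeq windows of 250 bases upstream (GRCm38.p6) were found for 5 of the 7 genes, these 4 and *Tnnc2*. Each is printed 5′ to 3′ along the strand of the gene and ends at the base before the start site. Capitals mark matches on either strand to the E-box CANNTG, the letters bound by myogenic factors such as MyoD and myogenin, and to the MCAT element CATTCC, the letters bound by TEAD factors. The windows are chr1:135799171-135799420 on the plus strand for *Tnni1*, chr7:4515976-4516225 on the minus strand for *Tnnt1*, chr14:31208062-31208311 on the plus strand for *Tnnc1* and chr1:135836084-135836333 on the plus strand for *Tnnt2*.
Tnni1: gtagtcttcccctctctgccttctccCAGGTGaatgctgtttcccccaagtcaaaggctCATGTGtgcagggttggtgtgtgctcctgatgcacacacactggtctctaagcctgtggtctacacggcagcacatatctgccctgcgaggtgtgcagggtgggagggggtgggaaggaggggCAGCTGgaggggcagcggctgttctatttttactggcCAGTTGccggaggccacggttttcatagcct
Tnnt1: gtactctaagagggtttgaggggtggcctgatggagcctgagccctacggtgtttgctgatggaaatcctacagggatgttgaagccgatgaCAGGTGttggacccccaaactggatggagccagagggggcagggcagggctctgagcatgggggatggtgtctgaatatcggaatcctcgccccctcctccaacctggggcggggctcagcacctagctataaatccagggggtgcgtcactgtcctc
Tnnc1: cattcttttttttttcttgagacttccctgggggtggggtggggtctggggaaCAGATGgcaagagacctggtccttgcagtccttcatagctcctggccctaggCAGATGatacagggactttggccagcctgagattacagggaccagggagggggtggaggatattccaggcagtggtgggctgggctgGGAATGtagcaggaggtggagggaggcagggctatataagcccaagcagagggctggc
Tnnt2: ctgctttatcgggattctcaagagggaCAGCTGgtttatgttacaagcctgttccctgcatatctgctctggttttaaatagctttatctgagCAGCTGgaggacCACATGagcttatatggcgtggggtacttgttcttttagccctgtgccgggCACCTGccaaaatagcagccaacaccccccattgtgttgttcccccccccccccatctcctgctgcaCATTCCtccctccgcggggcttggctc

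The windows shown for *Tnni1* and *Tnnt2* each held 4 E-boxes, that of *Tnnc1* held 2, and that of *Tnnt1* held 1, which starts 158 bases before the start site. All 5 genes with an entry had at least 1 E-box in a window, as did 66.2% of the 32851 windows in the RefSeq table. An MCAT element was present 27 bases before the start of *Tnnt2* and, on the other strand, 58 bases before that of *Tnnc1*, against 12.6% of all windows. No window of these genes matched the MEF2 motif, which 3.2% of all windows hold. RefSeq also gives *Tnni1* and *Tnnt2* a second start site, not printed here. The window before that of *Tnni1* held 2 E-boxes, and that before the second site of *Tnnt2*, all 250 bases of which are exon sequence, held 1 E-box and no MCAT element. The last 19 bases shown for *Tnni1* and the last 29 for *Tnnt1* are also exon sequence of another annotated transcript. A match is a description of letters and does not show that a factor binds there.

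At P35 the 3 slow troponin genes and *Tnnt2* were all higher in KO than in WT muscle, and the 3 fast genes were not called different. For *Tnni1*, slow TnI, the WT libraries gave 3.97, 5.73, 4.51 and 4.20 CPM, against 77.1, 144.6, 115.1 and 72.4 CPM for KO. Every KO library stood far above every WT library. The KO to WT ratio fitted by edgeR was 22.6-fold, or 4.5 ± 0.255 (SE) on the log2 scale, and the adjusted P over all genes tested was 1.19e-05 by its quasi-likelihood test.

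*Tnnt1*, slow TnT, followed the same pattern. Its WT libraries gave 10.8, 15.1, 14.0 and 8.69 CPM, against 229.9, 416.8, 204.7 and 159.5 CPM for KO. All KO libraries lay above all WT libraries, and KO replicate 2 was the highest for *Tnnt1* as for *Tnni1*. The ratio was 21.2-fold, or 4.40 ± 0.330 (SE) on the log2 scale (edgeR, adjusted P = 4.92e-05).

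*Tnnc1* encodes the TnC used by both slow fibers and the heart. It stood at 5.13, 9.66, 6.20 and 2.49 CPM in WT, against 99.1, 161.9, 120.5 and 93.6 CPM in KO. Again no KO library came near the WT range, and KO replicate 2 was the highest library. The ratio was 20.6-fold, or 4.37 ± 0.374 (SE) on the log2 scale (edgeR, adjusted P = 8.97e-05). The 3 slow genes thus differed between genotypes by nearly the same factor, from 20.6-fold to 22.6-fold. Each SE belongs to the ratio of 1 gene, and the gap between genes was not tested.

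*Tnnt2*, cardiac TnT, was called higher by a smaller factor. The WT values were 5.89, 4.59, 6.17 and 5.12 CPM and the KO values 20.3, 17.4, 32.5 and 26.7 CPM. The groups did not overlap here either, but the KO library that was highest for the slow genes was the lowest for *Tnnt2*. The ratio was 4.52-fold, or 2.18 ± 0.198 (SE) on the log2 scale (edgeR, adjusted P = 1.12e-04). The 4 genes of the printed upstream windows thus fall into 3 that differed by about the same factor and 1 that differed by less.

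**Figure D1:**
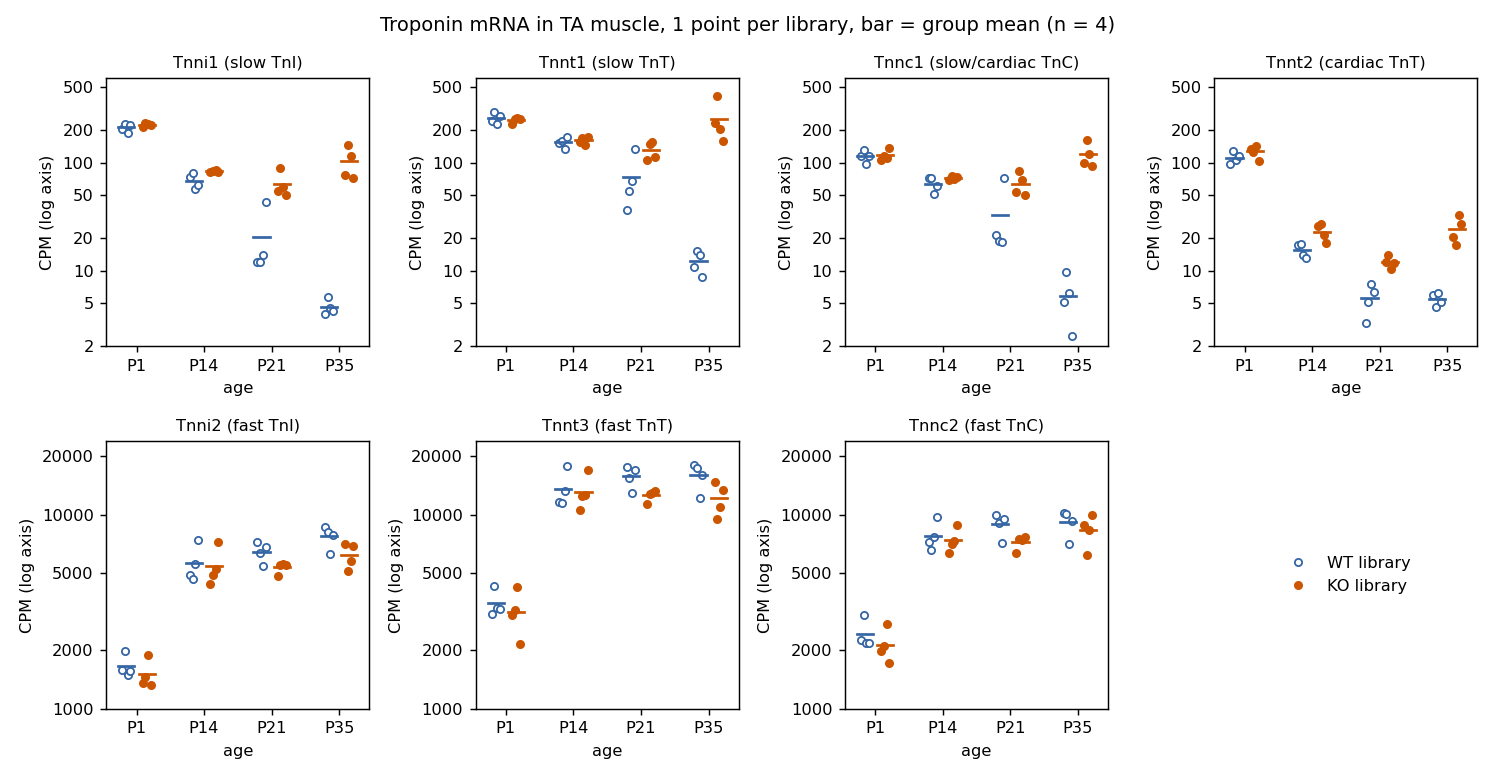
CPM of each troponin gene (log axis) in every library at P1, P14, P21 and P35, with open circles for WT, filled circles for KO and bars for group means (n = 4). In the upper row the WT and KO libraries lie together at P1 and lie apart at P35, while in the lower row both genotypes rise from P1 to P14 and overlap at P35.

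These 4 genes, called higher, make up 4 of the 7 members at P35, against 16% of all genes tested at that age that were called in either direction and 8.49% that were called higher. A gene was called when its adjusted P was under 0.01 and its fitted ratio was over 1.5-fold in either direction, the limits used in the study. The libraries of the 2 genotypes did not overlap for the same 4 members, as they did not for 39.6% of all genes tested. All 4 calls remained under each alternative normalization, filter, tool and test, and without any 1 library.

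The fast genes carry nearly all troponin mRNA of this muscle and were not called. For *Tnni2*, fast TnI, the WT values were 8664, 8178, 6288 and 7854 CPM and the KO values 7039, 5107, 5756 and 6909 CPM at P35, a log2 ratio of -0.30 ± 0.156 (SE; edgeR, adjusted P = 0.153). *Tnnt3*, fast TnT, stood at 18148, 17424, 12287 and 16103 CPM in WT, against 14840, 9532, 10923 and 13437 CPM in KO, a log2 ratio of -0.37 ± 0.190 (SE; edgeR, adjusted P = 0.147). *Tnnc2*, fast TnC, stood at 10172, 10077, 7082 and 9300 CPM in WT, against 8873, 6242, 8385 and 9936 CPM in KO, a log2 ratio of -0.11 ± 0.179 (SE; edgeR, adjusted P = 0.66). The groups overlapped for each of these genes. Their log2 ratios were 0.10, 0.03 and 0.29 when libraries were scaled by their totals, a scaling that moved the median over all genes at P35 from 0.04 to 0.44 and the part of all calls with the higher level in KO muscle from 53.0% to 93.0%. The fast genes thus had no direction at P35 that held under both scalings.

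The readout is RNA per unit of muscle RNA, in which fewer fibers of a type and less RNA per fiber cannot be told apart. Other markers moved with genotype at P35. The summed level of 8 smooth muscle markers was 2887 to 3146 CPM in WT and 4346 to 5461 CPM in KO libraries. Of these 8 genes 1 was called higher and 5 had positive log2 fold changes, with a median of 0.23 against 0.04 for all genes tested. This list includes *Des*, which also stands in the skeletal muscle list. At P21 the mean sum of the smooth muscle list was 3005 CPM in WT and 4736 CPM in KO. Only 1 of its 8 genes had a positive log2 fold change at that age, with a median of -0.43. A higher sum therefore does not show that the list rose as a set. The summed level of 10 keratinocyte markers was 14.5 to 16.8 CPM in WT and 43.6 to 60.2 CPM in KO libraries. Of the 5 tested, 3 were called higher. The summed level of the 8 skeletal muscle markers was 67756 to 84540 CPM in WT and 43867 to 53087 CPM in KO libraries. Of these 8 genes 1 was called higher and 2 lower, with a median log2 fold change of -0.61. *Acta1* alone had means of 33284 CPM in WT and 19368 CPM in KO. The part of these shifts in the troponin differences was not tested. Since *Tnnt2* and *Tnnc1* are heart genes, cardiac markers were read as well. *Nkx2-5* had 0 counts in every P35 library, *Gata4*, *Nppa*, *Nppb* and *Myl7* had at most 3 counts in any, and 5 of the 10 cardiac markers were thus at or near 0. Of the other 5, which were tested, 3 had positive log2 fold changes, 1 was called higher and 1 lower. The marker called higher was *Myl4*, the myosin light chain of atrium and embryonic muscle, at 236 to 573 counts in WT and 2167 to 7714 counts in KO libraries (log2 fold change 3.10 ± 0.440 SE, adjusted P = 6.61e-04 in edgeR's test), and the marker called lower was *Actc1*, both named after their values were seen. The summed cardiac list, which in WT is mostly *Actc1*, was 2165 to 2751 CPM in WT and 89.8 to 627.5 CPM in KO libraries.

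*Tnni3*, the cardiac TnI gene, stayed at the edge of detection throughout. It had between 2 and 98 counts in the 32 libraries, with 2, 7, 8 and 7 counts in WT and 46, 23, 19 and 10 counts in KO libraries at P35. The raw KO counts were higher without overlap, but the libraries differ in size. In CPM the groups overlapped, at 0.0487 to 0.190 in WT and 0.178 to 0.768 in KO libraries. The difference was not called (log2 fold change 1.49 ± 0.53 SE, adjusted P = 0.0474 in edgeR's test), except in 1 fit of all 32 libraries (adjusted P = 0.00455).

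The difference between genotypes was absent from the calls at P1. None of the 7 genes was called there, against 0.0442% of all genes tested, and their log2 fold changes ran from -0.17 for *Tnnc2* to 0.20 for *Tnnt2* (adjusted P 0.558 to 0.884 in edgeR's test, unadjusted P 0.112 to 0.667). DESeq2 called none of them either. For *Tnni1* at P1 the WT values were 205.8, 229.5, 188.5 and 222.2 CPM and the KO values 211.0, 230.7, 228.1 and 222.1 CPM, which overlapped, and the libraries of the genotypes overlapped for all 7 members, while they did not for 8.73% of all genes tested.

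At P14 none of the 7 genes passed the call rule either, against 0.0318% of all genes tested, and DESeq2 called none. For *Tnnt2* the WT values were 17.1, 17.8, 13.8 and 13.1 CPM and the KO values 25.6, 27.0, 21.4 and 17.9 CPM. Every KO library lay above every WT library, the narrowest gap being 17.8 against 17.9 CPM, as for 4.82% of all genes tested. The ratio was 1.49-fold, or 0.57 on the log2 scale, with an adjusted P of 0.413 by edgeR (unadjusted P = 0.00443). At this age alone, WT and KO libraries with the same replicate number deviated together in every pair. When the number was fitted as a block, the adjusted P of *Tnnt2* was 3.42e-04 by edgeR, at a ratio still under the size that a call required. With the block, 98 genes in all were called at P14, against 5 without it. *Tnni1* also separated without overlap, at 74.1, 79.4, 56.6 and 62.0 CPM for WT against 82.3, 84.3, 84.4 and 81.2 CPM for KO (log2 ratio 0.29, adjusted P = 0.637 in edgeR's test and 0.0429 with the block). The other 5 genes overlapped between genotypes, and only *Tnnt2* and *Tnni1* of the 7 had an unadjusted P under 0.05.

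At P21 *Tnnt2* was called higher in KO muscle, 1 of the 7 members against 4.67% of all genes tested that were called and 3.18% that were called higher. The WT values were 3.24, 5.11, 7.51 and 6.32 CPM and the KO values 12, 14.0, 10.3 and 11.9 CPM. No library overlapped, as for 25.4% of all genes tested. The ratio was 2.18-fold, or 1.13 ± 0.227 (SE) on the log2 scale (edgeR, adjusted P = 0.00864). The call was a narrow one, and it was lost without any 1 of 6 of the 8 libraries, where the adjusted P reached at most 0.0276.

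For the slow genes at P21 the call depended on WT replicate 4. *Tnni1* stood at 12, 12.1, 13.9 and 43.0 CPM in WT, against 54.4, 88.9, 59.6 and 49.6 CPM in KO. *Tnnc1* stood at 21.3, 18.9, 18.5 and 71.5 CPM in WT, against 53.7, 83.0, 68.2 and 49.8 CPM in KO. *Tnnt1* stood at 36.5, 55.1, 67.0 and 132.5 CPM in WT, against 105.1, 147.5, 155.8 and 112.7 CPM in KO. WT replicate 4 was at or near the KO range for each of these genes while the other WT libraries were well under it. With all libraries, the log2 ratios were 1.65 ± 0.417 (SE) for *Tnni1*, 0.98 ± 0.428 (SE) for *Tnnc1* and 0.85 ± 0.340 (SE) for *Tnnt1*, and none was called (edgeR, adjusted P = 0.0218, 0.133 and 0.105). Without WT replicate 4 they were 2.33, 1.72 and 1.31, and these 3 genes were called (edgeR, adjusted P = 5.99e-04, 0.00112 and 0.00706) while *Tnnt2* was not (adjusted P = 0.0161).

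In that library the slow troponin genes stood further from the other WT P21 libraries than the fast ones did. Relative to the median of WT replicates 1 to 3, it held 3.55 times as much *Tnni1*, 3.79 times as much *Tnnc1* and 2.41 times as much *Tnnt1*, but 1.08 times as much *Tnni2*, 1.09 times as much *Tnnt3* and 1.04 times as much *Tnnc2*. *Tnnt2* was at 1.24 times that median. Of 12 slow fiber genes outside the troponins, it was the highest WT P21 library for 4 (*Myh7*, *Myl2*, *Atp2a2* and *Tpm3*) and the lowest for 2 (*Casq2* and *Sln*). Its level over that median ran from 0.696 for *Casq2* to 5.81 for *Myh7*, the slow myosin heavy chain, with a median of 1.30 over the 12 genes. Of 12 fast fiber genes it was the highest library for 8, with ratios from 1.02 to 1.30 and a median of 1.14. Whether more slow fibers were sampled in that library was not tested.

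None of the fast genes was called at P21. Log2 ratios of KO to WT were -0.26 for *Tnni2*, -0.32 for *Tnnt3* and -0.29 for *Tnnc2* (edgeR, adjusted P from 0.0823 to 0.114). The libraries of the 2 genotypes overlapped for each of these genes. Scaling by library totals moved the median log2 ratio of all genes at P21 from 0.01 to 0.20 and the part of all calls with the higher level in KO muscle from 68.0% to 90.9%.

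**Figure D2:**
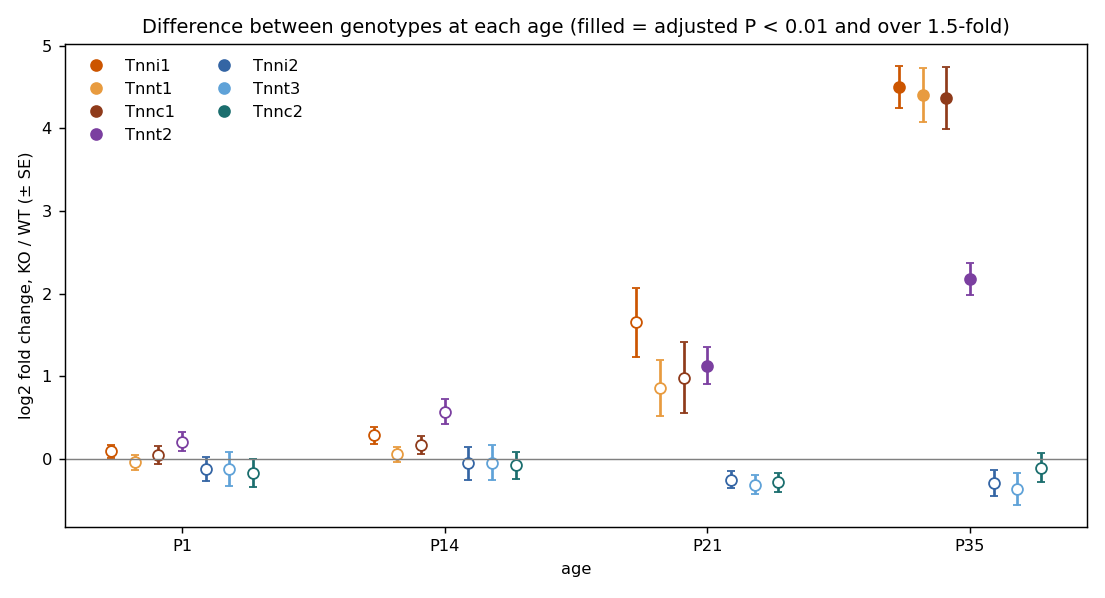
Log2 fold change (KO over WT) of each troponin gene at each age from edgeR, with bars of 1 SE, and filled symbols where the difference was called. The slow genes and *Tnnt2* move away from 0 at P21 and reach 2.18 to 4.5 at P35, while the fast genes stay between -0.37 and -0.05, with signs that turn at P14 and P35 when libraries are scaled by their totals.

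The slow genes remained a small part of the troponin mRNA in both genotypes. To compare genes of different length, counts were divided by the length of each gene's merged exons, and the share of each gene among the genes of its subunit was taken within a library, which does not depend on how libraries are scaled. At P35 *Tnni1* made up 0.0250% ± 0.00528 (SD, n = 4) of TnI mRNA in WT and 0.719% ± 0.347 (SD, n = 4) in KO. *Tnnt1* made up 0.0564% ± 0.0199 (SD, n = 4) of TnT mRNA in WT and 1.58% ± 0.996 (SD, n = 4) in KO, and *Tnnc1* 0.05% ± 0.0248 (SD, n = 4) of TnC mRNA in WT and 1.15% ± 0.556 (SD, n = 4) in KO. Even in KO replicate 2, where slow shares were the highest, they reached only 1.16%, 3.04% and 1.95%. *Tnnt2* made up 0.00718% of TnT mRNA in WT and 0.0409% in KO at P35. These shares depend on the length used, and for *Tnnt2* they were 0.0114% and 0.0645% with the longest transcript and 0.0352% and 0.199% with no length, at a similar ratio between the genotypes.

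The order of the genes by level per kilobase was much the same in both genotypes. At P35 *Tnnc2* and *Tnnt3* led in WT and KO muscle with ranges that overlapped, followed by *Tnni2* at 5174 ± 686 (SD, n = 4) CPM per kb in WT and 4143 ± 622 (SD, n = 4) CPM per kb in KO. *Tnnt1* and *Tnnc1* came next and could not be ordered within their spread, at 5.52 ± 1.34 (SD, n = 4) and 5.64 ± 2.85 (SD, n = 4) CPM per kb in WT and at 114.7 ± 51.4 (SD, n = 4) and 114.1 ± 29.8 (SD, n = 4) CPM per kb in KO. *Tnni1* lay under both within every library, and *Tnnt2* was the lowest of the 7 in all 8 groups.

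**Figure D3:**
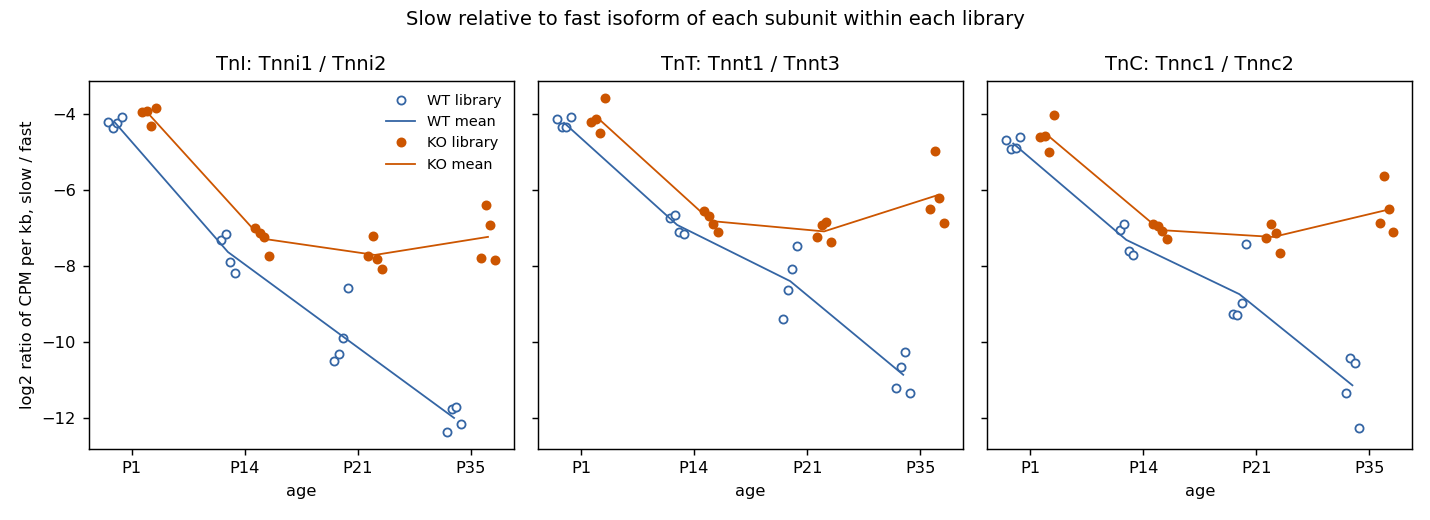
Log2 ratio of the slow to the fast gene of each subunit (CPM per kb) within each library at each age, with open circles for WT, filled circles for KO and lines through group means. The WT means are lower at each later age, down to -11.99, -10.86 and -11.13 for TnI, TnT and TnC at P35, while the KO means at P35 are -7.23, -6.14 and -6.53.

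The within-library ratios of slow to fast gene separated the genotypes in the same way for each subunit. At P35 the mean log2 ratio was higher in KO by 4.75 for TnI, 4.71 for TnT and 4.6 for TnC, with no overlap between libraries. At P21 the difference was 2.10, 1.31 and 1.5, and the libraries did not overlap for TnI and TnT but did for TnC, where WT replicate 4 lay within the KO range. Without that library it was 2.52, 1.61 and 1.94, and the libraries overlapped for none of the subunits. At P1 it was 0.22, 0.12 and 0.23 and at P14 0.35, 0.10 and 0.26, with overlapping libraries in every case. These ratios were computed from the same counts as the tests above, and no test was run on them.

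Between P1 and P14 all 7 genes changed in both genotypes, in opposite directions for fast and non-fast genes. Calls were common at this step, with 55.1% of all genes tested called in WT (24.7% higher and 30.4% lower at P14) and 52.6% in KO (23.5% higher and 29.1% lower). Scaling by library totals moved the part of all calls with the higher level at P14 from 44.8% to 13.8% in WT and from 44.7% to 14.5% in KO, and the median log2 ratio of all genes from -0.08 to -0.85 and from -0.09 to -0.80. P1 and P14 libraries did not overlap for any of the 7, nor for 76% of all genes tested in WT and 70.4% in KO. *Tnni2*, *Tnnt3* and *Tnnc2* rose in WT by 3.39-fold, 3.85-fold and 3.20-fold (edgeR, adjusted P 1.09e-05 to 1.32e-05), and in KO by 3.54-fold, 4.07-fold and 3.40-fold (edgeR, adjusted P 4.27e-05 to 8.85e-05). *Tnnt2* fell the most, from 96.2, 127.8, 104.9 and 114.8 CPM at P1 to 17.1, 17.8, 13.8 and 13.1 CPM at P14 in WT, 7.22-fold lower, and was 5.61-fold lower at P14 than at P1 in KO (edgeR, adjusted P = 9.46e-08 and 1.25e-06). *Tnni1* fell by 1.65 on the log2 scale in WT and by 1.45 in KO, *Tnnc1* by 0.85 and 0.73, and *Tnnt1* by 0.75 and 0.65 (edgeR, adjusted P 7.66e-07 to 1.53e-04 for these 3 genes in both genotypes). With library totals all 7 genes were still called in the same directions, the fast ones at log2 ratios of 0.90 to 1.16 in WT and 1.05 to 1.31 in KO, *Tnnt1* at -1.52 and -1.37. *Tnnt1* and *Tnnc1* were not called in either genotype by glmTreat, which tests against a 1.5-fold change, or in 1 fit of all 32 libraries, where their adjusted P reached 0.177 at most by edgeR and 5 of the 7 members were called. No interaction of genotype with this step was called for any of the 7, against 0.0161% of all genes tested (adjusted P 0.866 to 0.993 in edgeR's test, unadjusted P 0.153 to 0.763). DESeq2 called none of these interactions. Tissue markers moved at this step as well. The mean sum of 10 keratinocyte markers was 3768 CPM in WT and 4295 in KO at P1, against 15.6 and 23.4 at P14. For the 8 skeletal muscle markers it was 26191 CPM in WT and 23122 in KO at P1, against 72243 and 63902 at P14. The part of these shifts in the troponin changes was not tested.

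The step from P14 to P21 moved few members past the call rule. *Tnnt2* fell in WT by 1.49 on the log2 scale (SE 0.231, adjusted P = 0.00279 in edgeR's test) and in KO by 0.95 (SE 0.142, adjusted P = 0.00233), 1 of the 7 members in each genotype against 5.53% of all genes tested in WT (2.6% lower) and 7.04% in KO (3.74% lower). The log2 ratio of *Tnni1* was -1.76 ± 0.402 (SE) in WT and -0.41 ± 0.159 (SE) in KO, with no call (edgeR, adjusted P = 0.0136 and 0.0811). Without WT P21 replicate 4, *Tnni1*, *Tnnt1*, *Tnnt2* and *Tnnc1* were all called lower at P21 than at P14 in WT, at log2 ratios of -2.42, -1.54, -1.54 and -1.70. The fast genes were not called at this step, with log2 ratios of 0.18 to 0.21 in WT and -0.08 to -0.04 in KO. The interaction was called for no member, against 0.425% of all genes tested, and DESeq2 called none, while the unadjusted P was under 0.05 for 2 of the 7, *Tnni1* and *Tnnt1*. For *Tnni1* it was 1.35 ± 0.390 (SE, adjusted P = 0.0806 in edgeR's test), and without WT P21 replicate 4 it was 2.03 with an adjusted P of 6.35e-05 and was called. For *Tnnt1* it was 0.78 (edgeR, adjusted P = 0.367) and for *Tnnc1* 0.80 (adjusted P = 0.488), and without that library 1.25 and 1.53 (edgeR, adjusted P = 0.0377 and 0.0157), with no call in either fit. Scaling by library totals moved the part of all calls with the higher level at P21 from 53.1% to 30.2% in WT.

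From P21 to P35 the genotypes moved further apart in the slow genes. In WT, *Tnnt1* was 6.06-fold lower at P35, a log2 ratio of -2.60 ± 0.380 (SE; edgeR, adjusted P = 0.00482), the only member called, against 2.45% of all genes tested that were called and 1.05% that were called lower. *Tnnc1* was at -2.49 ± 0.542 (SE) and *Tnni1* at -2.16 ± 0.427 (SE) on the same scale, just short of the threshold (edgeR, adjusted P = 0.0161 and 0.0114). For all 3 genes every P35 library lay under every P21 library, a separation that 24.3% of all genes tested showed. Without WT P21 replicate 4, which was the highest P21 library for these genes, *Tnni1* was at -1.48 and *Tnnt1* at -2.14, and both were called (edgeR, adjusted P = 0.00216 and 0.00414), while *Tnnc1* was at -1.76 (adjusted P = 0.02) and was not. *Tnnt2* was at -0.05 ± 0.240 (SE) in WT and was not called (edgeR, adjusted P = 0.902).

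In KO muscle over the same interval *Tnnt2* rose 2.03-fold, a log2 ratio of 1.02 ± 0.186 (SE; edgeR, adjusted P = 0.00636), the member called of 7 against 4.01% of all genes tested that were called and 2.07% that were called higher. *Tnnt1* was at 0.97 ± 0.275 (SE), *Tnnc1* at 0.92 ± 0.205 (SE) and *Tnni1* at 0.71 ± 0.249 (SE), with no call (edgeR, adjusted P = 0.0312, 0.0138 and 0.0652). P35 and P21 libraries did not overlap for *Tnnt1*, *Tnnt2* and *Tnnc1*, as for 27.2% of all genes tested. The call for *Tnnt2* was lost without any 1 of 7 of the 8 libraries. The fast genes had log2 ratios of -0.03 to 0.23 with no call. Scaling by library totals moved the part of all calls with the higher level at P35 from 51.7% to 83.4% in KO and from 57.1% to 42.0% in WT.

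The difference between these P21 to P35 changes was itself tested. The interaction was called for 3 of the 7 genes, against 0.463% of all genes tested in either direction and 0.151% called higher. Higher calls were 32.6% of all calls here and 82.4% when libraries were scaled by their totals, where the same 3 genes were called. It was 3.54 ± 0.386 (SE) for *Tnnt1* (adjusted P = 1.17e-05), 3.37 ± 0.472 (SE) for *Tnnc1* (adjusted P = 4.28e-04) and 2.84 ± 0.406 (SE) for *Tnni1* (adjusted P = 5.12e-04) in edgeR's test over all 32 libraries. For *Tnnt2* it was 1.04 ± 0.277 (SE; edgeR, adjusted P = 0.0438) and was not called, although DESeq2 called it. A fit to only the 16 libraries of the 2 ages called *Tnnt1* alone, and a fit without WT P21 replicate 4 called the same 3 genes at 3.07, 2.63 and 2.16.

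**Figure D4:**
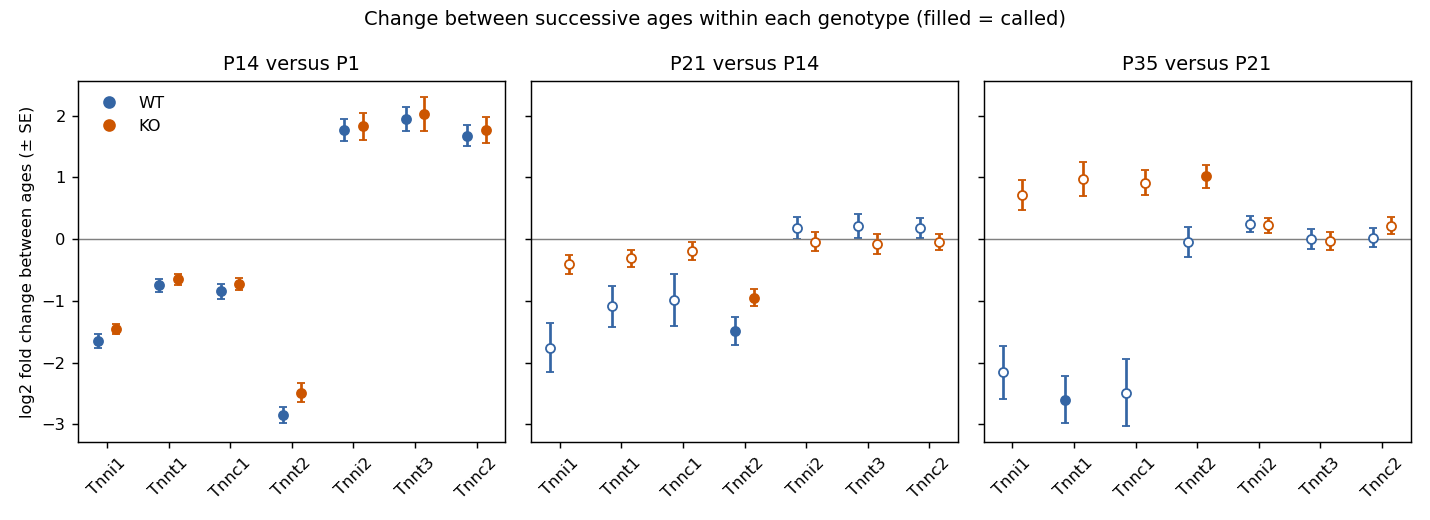
Log2 fold change between successive ages for each troponin gene in WT and KO muscle, with bars of 1 SE, and filled symbols where the change was called. At the last step the 3 slow genes stand at -2.16 to -2.60 in WT and at 0.71 to 0.97 in KO, and the fast genes stay near 0 in both genotypes.

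Set beside the newborn level, the level reached in KO muscle at P35 differed among the 4 genes. The mean of *Tnnt1* was 256.6 CPM in WT at P1, 12.2 CPM in WT at P35 and 252.7 CPM in KO at P35. That of *Tnnc1* was 114.0, 5.87 and 118.8 CPM in the same groups. That of *Tnni1* was 211.5, 4.6 and 102.3 CPM, and that of *Tnnt2* 110.9, 5.44 and 24.2 CPM, so that KO muscle at P35 held 98.5% of the newborn WT level of *Tnnt1* and 104.2% of that of *Tnnc1*, but 48.4% of that of *Tnni1* and 21.8% of that of *Tnnt2*. In the fast genes KO muscle at P35 stood at 344.8 to 374.3% of the newborn WT level. These percentages depend on the scaling. By library totals, a reading added after the data were seen, they were 66.0% for *Tnnt1*, 69.5% for *Tnnc1*, 32.3% for *Tnni1* and 14.4% for *Tnnt2*, and 227.5 to 247.0% in the fast genes. Under both scalings *Tnnt1* and *Tnnc1* stood nearest to the newborn level of these 4 genes and *Tnnt2* furthest under it. These 3 groups were not compared by a test. They also differed in tissue markers. The mean sum of the 8 skeletal muscle markers was 26191 CPM in WT at P1 and 48256 CPM in KO at P35. For the 10 keratinocyte markers it was 3768 and 50.6 CPM in the same 2 groups. The part of this difference in the percentages was not tested.

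Within the slow set the balance between subunits was not the same at every age. The per kilobase ratio of *Tnnt1* to *Tnni1* was 1.98 ± 0.0672 (SD, n = 4) in WT and 1.81 ± 0.0379 (SD, n = 4) in KO at P1, and 4.31 ± 0.700 (SD, n = 4) in WT and 4.02 ± 0.934 (SD, n = 4) in KO at P35. At P21 it was 4.96 to 7.85 in WT libraries, with a mean of 6.32 ± 1.54 (SD, n = 4), and 2.71 to 4.27 in KO libraries, with a mean of 3.46 ± 0.679 (SD, n = 4). The ratio of *Tnnc1* to *Tnni1* at that age was 4.58 to 6.14 in WT and 3.23 to 3.96 in KO libraries. Neither ratio overlapped between the genotypes at P21, with or without WT replicate 4, while both overlapped at P35, and no test was run on them. By merged exon length the ratio of *Tnnt1* to *Tnnc1* had group means from 0.978 to 1.19, and single libraries ran from 0.740 to 1.71. How near it lies to equality depends on the length used. The merged exons of *Tnnt1* and *Tnnc1* are 2204 and 1041 bp long, and their longest transcripts 1059 and 721 bp. Within the fast set the ratios held closer, that of *Tnnc2* to *Tnni2* having group means from 2.21 to 2.73 and that of *Tnnt3* to *Tnni2* from 1.85 to 2.31. The ratio of *Tnnt3* to *Tnnc2* had group means from 0.730 to 0.897. At P35 it was 0.874 to 0.902 in WT libraries and 0.658 to 0.845 in KO libraries, without overlap, and no test was run on it.

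Libraries of the same group varied together within the slow set and within the fast set, but not across them. After subtracting each group's mean from log2 CPM, the 3 slow pairs correlated over the 32 libraries at r = 0.80 to 0.85, the 3 fast pairs at 0.937 to 0.940, and the 9 slow to fast pairs at -0.18 to -0.02. *Tnnt2* correlated with the slow genes at 0.07 to 0.24 and with the fast genes at -0.28 to -0.10. These values describe libraries that share depth, scaling and dissection, and WT P21 replicate 4 carried part of the slow values, which were 0.65 to 0.69 without it.

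**Figure D5:**
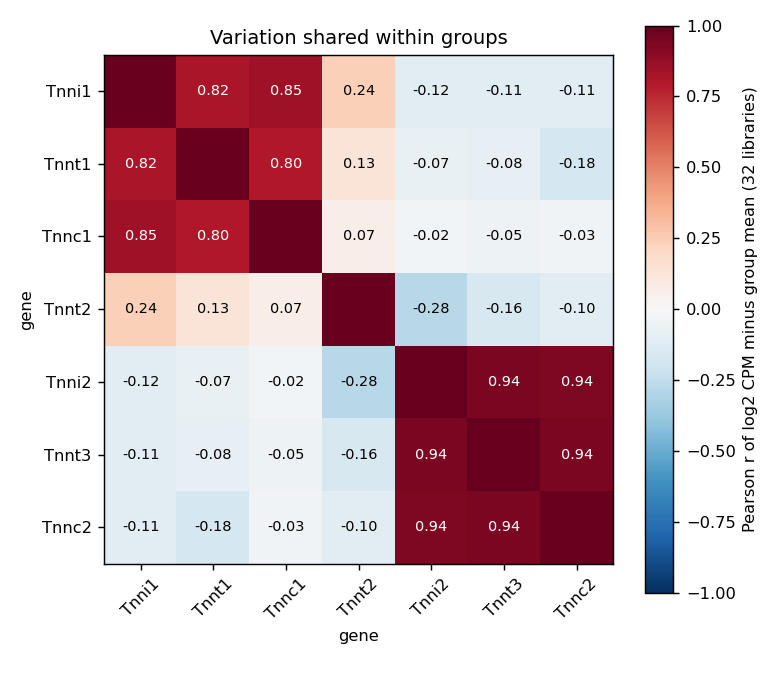
Pearson r between troponin genes of log2 CPM minus the group mean over the 32 libraries, with color from -1 to 1. The slow genes (*Tnni1*, *Tnnt1* and *Tnnc1*) form 1 block at 0.80 to 0.85, the fast genes (*Tnni2*, *Tnnt3* and *Tnnc2*) another at 0.94, and *Tnnt2* belongs to neither.

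Over all 32 libraries the genes whose log2 CPM was most like that of each member were looked up among the 10451 other genes with a mean of at least 5 CPM. The nearest genes to *Tnnt1* and *Tnnc1* were each other (r = 0.983), then *Tnni1*, then *Atp2a2* (r = 0.957 with *Tnnt1* and 0.944 with *Tnnc1*), the calcium pump of slow fibers and the heart. *Tnni1* was nearest to *Tnnt1* (0.959), *Tnnc1* (0.958) and *Atxn10* (0.951). *Tnnt2* kept different company, with *Chrng* (0.986), the fetal acetylcholine receptor subunit, *Myh3* (0.984), the embryonic myosin heavy chain, and *Carhsp1* (0.974). *Tnni2* and *Tnnc2* were nearest to each other (0.993). Next came *B230118H07Rik* and *Smim10l1* for *Tnni2* (both 0.991), and *Tnnt3* (0.992) and *Vapb* (0.988) for *Tnnc2*. *Tnnt3* was nearest to *Rtn2* (0.994), then to *Tnnc2* (0.992) and *Tpm1* (0.991), a fast fiber tropomyosin gene. These are descriptions over 8 groups that differ in age, with no test.

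Other genes of the thin filament and of fiber types were read from lists to set the troponins in context at P35. Of 14 partners of troponin on the thin filament, 2 were called higher and 3 lower, with a median log2 fold change of 0.02 against 0.04 for all genes tested. *Tpm3*, the slow fiber tropomyosin, was higher by 1.61 ± 0.140 (SE, adjusted P = 9.56e-05), *Klhl40*, a stabilizer of thin filament proteins, by 0.99 ± 0.139 (SE, adjusted P = 6.27e-04), and *Neb*, the nebulin ruler of the thin filament, was lower at -0.82 ± 0.158 (SE, adjusted P = 0.00309), on the log2 scale in edgeR's test. The number called ran from 3 to 6 with each library left out, was 3 with the replicate block and 1, *Tpm3*, with glmTreat, and reached 7 with DESeq2 and in 1 fit of all 32 libraries. *Neb* was not called with library totals, where it was at -0.41, with the block, with glmTreat (adjusted P = 0.211 by edgeR), or without WT replicate 4 or KO replicate 3, and *Klhl40* was not called with glmTreat. For the 7 troponin genes the median was 2.18, which is the value of *Tnnt2*, with the 3 slow genes above it and the 3 fast genes under it. It thus depends on how many genes of each kind the list holds.

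Of 12 slow fiber genes outside the troponins, 6 were called higher and none lower, with a median log2 fold change of 1.43. *Sln*, sarcolipin, an inhibitor of the calcium pump, was higher by 6.54 ± 0.656 (SE, adjusted P = 1.49e-04), *Myl6b*, a slow and embryonic myosin light chain, by 2.92 ± 0.241 (SE, adjusted P = 7.39e-05), and *Tpm3*, which stands in this list as well, as given above, in edgeR's test. The remaining called genes were *Myh7*, *Myl2* and *Atp2a2*. Of 12 fast fiber genes 2 were called lower and none higher, with a median of -0.62, namely *Mylk2*, the myosin light chain kinase of skeletal muscle (-0.96 ± 0.153 SE; edgeR, adjusted P = 0.00119), and *Mybpc2*, fast myosin binding protein C (-1.20 ± 0.225 SE, adjusted P = 0.00269). *Atp2a1*, the fast calcium pump, had -0.75 ± 0.185 (SE, adjusted P = 0.0103) in edgeR's test and was not called. The number of fast fiber genes called was 6 under DESeq2 and in 1 fit of all 32 libraries, 1 with library totals and 0 with glmTreat, while 6 to 8 slow fiber genes were called under every setting tried.

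Of 12 genes known from developing or denervated fibers, 10 were called higher and 1 lower at P35, with a median log2 fold change of 1.94. *Runx1*, a transcription factor induced on denervation, was higher by 3.15 ± 0.224 (SE, adjusted P = 4.27e-05), *Myh3* by 4.16 ± 0.338 (SE, adjusted P = 7.01e-05) and *Ncam1*, a cell adhesion molecule that spreads over denervated fibers, by 1.91 ± 0.186 (SE, adjusted P = 1.36e-04) in edgeR's test. The gene called lower was *Actc1*, the actin of heart and newborn muscle, at -2.78 ± 0.546 (SE; edgeR, adjusted P = 0.00334), named here after its value was seen. *Tnnt2* and *Actc1*, both cardiac and neonatal thin filament genes, were thus called in opposite directions, although *Actc1* was not called with glmTreat or without KO replicate 1. Of the 12 genes, 6 were called with glmTreat and 8 to 11 with each library left out.

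*Tnnc1* lies inside *Nisch*, which is transcribed from the opposite strand, and *Tnnc2* and *Tnnt3* overlap *Ube2c* and *Prr33* on the opposite strand. The libraries were made with a directional kit, but whether counting used strand is not given in the sources used here. *Nisch* measured 77.7 to 93.7 CPM in WT and 75.2 to 89.8 CPM in KO libraries at P35 and shares no exon bases with *Tnnc1*, and *Ube2c*, which shares 592 bp of exon with *Tnnc2*, never reached more than 0.96% of the *Tnnc2* count. At most 0.827% of the 50-base words of any of the 7 genes occur in another gene. *Tnni3*, given for comparison, overlaps *Dnaaf3* on the same strand with 86 bp of shared exon, which counting by strand cannot separate. The *Dnaaf3* count reached up to 300% of the *Tnni3* count, so the low counts of *Tnni3* are read with that limit.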

How the data were processed

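Poly(A) RNA of 32 muscle samples was sequenced with a directional library kit. The deposited table holds expected counts per gene, which the authors made on GRCm38. The submitters' processing notes name STAR 2.6.1, RSEM 1.2.22 and DESeq2, the methods name HTSeq, and whether counting used strand is not given in the sources used here. Of all values 4.26% were not whole and all were rounded. Symbols were taken from GENCODE M21 and matched 54809 of 54838 genes.

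Groups came from the labels (WT or KO, 4 ages). Each comparison was fitted with edgeR 4.0.16 (R 4.3.3; filterByExpr, TMM, quasi-likelihood test, Benjamini-Hochberg adjustment over all genes tested) on the libraries of its 2 groups, and interactions on all 32 libraries with genotype and age combined, called at an adjusted P under 0.01. The code was tested on simulated data. CPM came from 1 TMM scaling of all libraries. The text names all 7 members, *Mtm1*, *Tnni3*, the 3 genes of lowest adjusted P at P35 in each of 4 lists and the 3 genes most correlated with each member (prior count 2), and states where others are named. Members and lists were chosen with earlier results of these data known. Alternatives were other normalizations, filters, DESeq2 1.42.0, glmTreat (tests against a 1.5-fold change), a joint fit of the 32 libraries, a block for the replicate number and leaving out each library in turn.

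The labels give replicate numbers without a meaning. Only at P14 did same-numbered WT and KO libraries deviate together in every pair (r from 0.539 to 0.877), and whether the numbers pair samples at other ages is not known. Windows before start sites came from RefSeq.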

Additional observations from a re-analysis of the deposited data

Results flagged for a closer look

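The interaction of genotype with the step from P21 to P35 differed from 0 by edgeR's quasi-likelihood test for *Tnni1* (2.84 on the log2 scale, adjusted P = 5.12e-04), *Tnnt1* (3.54, adjusted P = 1.17e-05) and *Tnnc1* (3.37, adjusted P = 4.28e-04), so the change over this step differed between WT and KO muscle for these genes.

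In 5 of 80 groups of 4 libraries 1 library lay far from the others by Dixon's criterion at the 95% level, where chance flags about 1 in 20 groups. WT P21 replicate 4 was the highest of its group for *Tnni1* at 43.0 CPM (the others 12 to 13.9), for *Tnnc1* at 71.5 CPM (the others 18.5 to 21.3) and for the log2 ratio of *Tnnc1* to *Tnnc2* at -7.43 (the others -9.30 to -8.98). *Tnni2* was lowest in KO P21 replicate 1 at 4824 CPM (the others 5497 to 5572), and *Tnnc2* was highest in WT P1 replicate 2 at 3042 CPM (the others 2190 to 2270).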

How the results depend on the processing

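The members called for KO against WT at P1, P14 and P35 (0, 0 and 4) did not change in number under any of the settings tried or without any 1 library. At P21, where 1 was called, the number was 2 with library totals, DESeq2 or 1 fit of all 32 libraries, 0 with the replicate block or glmTreat, and 0 to 3 with each library left out. For the step from P14 to P21 in WT (1 called) it was 2 without a filter or with DESeq2, 3 with 1 fit of all 32 libraries, 0 with the replicate block or glmTreat, and 0 to 4 with each library left out. From P21 to P35 in WT (1 called) it was 3 without a filter, with DESeq2 or with 1 fit of all 32 libraries, 0 with the replicate block or glmTreat, and 0 to 2 with each library left out. In KO the step from P14 to P21 (1 called) gave 0 with glmTreat and 1 to 2 with each library left out, and that from P21 to P35 (1 called) gave 2 with library totals, without a filter or with 1 fit of all 32 libraries, 3 with DESeq2, 0 with glmTreat, and 0 to 1 with each library left out. The interaction with P21 to P35 (3 called) gave 1 with only the 16 libraries of both ages and 3 to 4 with each library left out, and that with P14 to P21 (0 called) gave 0 to 1. From P1 to P14 (7 called in each genotype) 5 were called with glmTreat or with 1 fit of all 32 libraries. Apart from WT and KO at P14, same-numbered libraries did not deviate together in every pair. The labels do not say whether the number pairs samples at other ages. For P21 to P35 in WT the mean r was 0.154 for same-numbered libraries and -0.0503 for others. Whether a call lost under the block reflects a weaker effect was not tested. glmTreat asks for a change shown to exceed 1.5-fold. The cause of the other changes was not tested.

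Signs turned for log2 ratios near 0. With library totals *Tnni2*, *Tnnt3* and *Tnnc2* were at 0.031, 0.0415 and 0.0104 at P14 and at 0.10, 0.0316 and 0.29 at P35. With each library left out, the ranges were -0.10 to 0.0157 for *Tnnt1*, -0.30 to 0.0185 for *Tnnt3* and -0.036 to 0.11 for *Tnnc1* at P1, then -0.22 to 0.11 for *Tnni2*, -0.0152 to 0.11 for *Tnnt1*, -0.20 to 0.11 for *Tnnt3* and -0.18 to 0.042 for *Tnnc2* at P14, -0.22 to 0.0044 for *Tnnc2* at P35, and -0.24 to 0.15 for *Tnnt2* from P21 to P35 in WT. Of 1659 alternative values for single genes, 1557 kept direction and side of the threshold, 48 lost the call, 34 gained it and 20 turned sign.

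Without length scaling the share of *Tnni1* at P35 was 0.0602% in WT and 1.71% in KO, and that of *Tnnt1* in WT was 0.0785%, or 0.0801% by the longest transcript. That of *Tnnt2* was 0.0352% and 0.199%, or 0.0114% and 0.0645% by the longest transcript. With library totals the mean r of deviations was 0.261 between *Tnnt2* and slow genes, 0.885 among fast genes and -0.156 between slow and fast genes, and without WT P21 replicate 4, an alternative chosen after the data were seen, these were 0.0119 for *Tnnt2* and slow genes, -0.221 between sets and 0.675 among slow genes. Over all genes at P35, 2496 were called, against 4675 with library totals and 602 with glmTreat. Over all genes at P21, 709 were called, against 1156 with library totals, 1075 with DESeq2 and 113 with glmTreat. At P1 8 were called, against 99 with DESeq2. At P14 5 were called, against 55 with DESeq2 and 98 with the replicate block. The interaction with P21 to P35 was called for 86 genes, against 328 with DESeq2 and 9 with only the 16 libraries of both ages. The 4 libraries a group and the low WT levels of *Tnnt2*, *Tnni1* and *Tnnc1* at P35 limit precision.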
